A study of Rattus norvegicus with 8 samples.

Results

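Transcripts of 8 secreted growth factors (Hbegf, Tgfa, Vegfa, Vegfd, Gdf15, Tgfb1, Bdnf and Pdgfa) were followed in a rat PC12 line with an inducible mutant huntingtin fragment. They are 8 of the 4736 genes that the arrays name with a single symbol, and 19 probe sets carry their symbols. The genes were chosen from earlier results of the same comparison of induced with uninduced cells, so the differences given for them here are a description and carry no test. PC12 is a cell line from a rat adrenal medullary tumour. Line Htt14A2.5 stably carries an inducible, truncated mutant form of exon 1 of human huntingtin, and all 8 samples are of this line. The 4 induced samples (marked +PA) received the steroid ponasterone for 48 h, and the 4 uninduced samples are marked -PA; both groups are numbered 1 to 4. Groups were taken from these marks, since the longer descriptions speak of induction for all 8 samples. No samples of a line without the transgene treated with ponasterone were analysed here, so the effects of the steroid and of the huntingtin fragment cannot be told apart.

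Growth factors are proteins that a cell releases to act on receptors of its own or of neighbouring cells. Hbegf and Tgfa are made as membrane-bound precursors that proteases shed as ligands of the EGF receptor. Vegfa and Vegfd act on VEGF receptors and Pdgfa on PDGF receptors, which are tyrosine kinases, as is Ntrk2, the receptor of the neurotrophin Bdnf. Tgfb1 and the distant relative Gdf15 belong to the TGF-beta superfamily; Tgfb1 acts on serine/threonine kinase receptors, whereas Gdf15 acts through Gfral with Ret. PC12 cells are widely used because growth factors change their fate, with neurite outgrowth after nerve growth factor and proliferation after EGF.

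Every sample has 1 array, whose values are signals scaled to a common level. The 2% trimmed means of the 8 arrays lay between 500.8 and 500.9, and their medians between 97.5 and 134.9. As a reference for low signal, the 95th percentile of 38 background controls lay between 102 and 183 on the arrays. Of the PC12 and chromaffin markers 6 of 11 on the array lay above that reference on all 8 arrays (Chgb, Prph, Vgf, Phox2a, Syp and Scg2), while the catecholamine genes Ddc and Dbh lay above it on 0 arrays and Th on 1, with Th at signals of 32.5 to 164 over the arrays. The summed signal of the chromaffin list ran from 26939 to 32346 in uninduced and from 31700 to 35222 in induced samples, but this came from 1 gene, Vgf, which rose from a mean of 1398 to 9349 (limma adjusted p = 2.9e-08). The other 10 markers summed to 25486 to 30857 uninduced and 23369 to 25602 induced. Of these, Phox2a fell by 0.70 ± 0.09 (log2; adjusted p = 0.00048) and Syp by 0.47 ± 0.09 (adjusted p = 0.0066), while Prph differed by -0.28 ± 0.10 and Chgb by 0.16 ± 0.11 without a call. Markers of other cell types had lower sums. Fibroblast markers summed to 4131 to 5126 uninduced and 4209 to 5369 induced, with 3 of 7 (Thy1, Col3a1 and Col1a1) above the reference on all arrays, Dcn above it on 1 and Lum on 0. Endothelial markers (1 of 4, Flt1, above the reference on all arrays) summed to 316 to 499 and 303 to 522, Schwann and glial markers (2 of 4, Pmp22 and Mag) to 617 to 892 and 790.0 to 913, leukocyte markers (1 of 5, Cd4) to 199 to 347 and 169 to 480, and adrenal cortex markers to 69.9 to 116 and 59.0 to 164, with all 5 of the last list under the reference on every array. Their part in the results was not tested. The rat Htt probe sets, at means of 99.2 and 119 uninduced and 112 and 143 induced, were not called (limma adjusted p = 0.799 and 0.798) and do not check the human fragment. Whether the replicates came from separate cultures is not given in the sources used here, so the spread between these samples may be technical. Standard errors of the limma fit rest on this spread and, in part, on that of other probe sets. In such bulk RNA, fewer cells with a transcript and less transcript per cell cannot be told apart.

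Induction went with higher transcripts of Hbegf, Gdf15 and Vegfd, each from a single probe set, while the other 5 growth factors had no probe set that passed. Of the 19 probe sets 15 passed the filter on low signal and were fitted with limma; a probe set counts as called at a Benjamini-Hochberg adjusted p under 0.05 over all 6118 probe sets tested. Of these 15, 3 were called higher, against 4.10% of all tested probe sets, 0 were called lower, against 2.97%, and 12 were not called. At an unadjusted p under 0.05 limma gave 3 higher and 2 lower, beside 536 higher and 568 lower of all 6118 tested. The lowest induced signal exceeded the highest uninduced signal for the same 3 probe sets (6.47% of all tested), and the reverse held for 1, a Vegfa probe set (7.13% of all tested). The median log2 difference of the 15 was -0.27, beside -0.05 over all tested probe sets. Since the genes were picked on this contrast, nothing follows from these counts.

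Sequences before the transcription starts of the 3 genes that were higher are shown to let a reader compare their promoters. RefSeq promoter windows (assembly GRCr8, 250 bases before to 50 after a start) were matched for 8 of 8 genes, in 15 windows; Bdnf has 6, Vegfa and Gdf15 have 2 each. The 250 bases before each start are given 5′ to 3′ on the gene's strand. They lie at chr18:28390221-28390470 (minus strand) for Hbegf, chrX:33739893-33740142 (minus strand) for Vegfd, and chr16:18838186-18838435 and chr16:18839015-18839264 (plus strand) for the upstream and downstream starts of Gdf15. Capitals mark matches to any of the motifs searched on both strands, which were the AP-1 motif TGACTCA, the full CRE motif TGACGTCA, its short form TGACG, the EGR1 motif GCGGGGGCG, the SP1 motif GGGCGG, the TATA box as TATAAA and the CCAAT box.
Hbegf: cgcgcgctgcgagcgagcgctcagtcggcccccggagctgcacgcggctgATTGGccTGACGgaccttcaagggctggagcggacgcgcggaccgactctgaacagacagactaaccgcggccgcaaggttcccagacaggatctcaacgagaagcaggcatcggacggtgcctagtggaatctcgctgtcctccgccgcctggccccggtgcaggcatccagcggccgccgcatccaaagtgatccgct
Vegfd: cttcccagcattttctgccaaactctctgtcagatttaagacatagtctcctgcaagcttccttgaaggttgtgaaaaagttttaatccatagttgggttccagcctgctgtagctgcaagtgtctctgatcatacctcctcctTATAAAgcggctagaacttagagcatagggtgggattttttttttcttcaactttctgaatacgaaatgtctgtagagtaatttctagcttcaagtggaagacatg
Gdf15 upstream start: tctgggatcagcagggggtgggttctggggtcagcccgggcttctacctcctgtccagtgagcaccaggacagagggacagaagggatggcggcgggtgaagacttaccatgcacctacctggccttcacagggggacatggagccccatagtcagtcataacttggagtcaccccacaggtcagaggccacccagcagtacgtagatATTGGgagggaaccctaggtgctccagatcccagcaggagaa
Gdf15 downstream start: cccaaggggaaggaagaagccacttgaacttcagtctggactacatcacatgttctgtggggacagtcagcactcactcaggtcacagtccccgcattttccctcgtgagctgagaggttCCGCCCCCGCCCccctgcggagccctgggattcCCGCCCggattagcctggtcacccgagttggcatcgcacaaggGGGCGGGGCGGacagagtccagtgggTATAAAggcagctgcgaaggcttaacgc

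The 3 genes shared no motif across all their starts. The Hbegf window held a CCAAT box on the minus strand at -200 to -196 from the start and a short CRE match at -193 to -189, and its GC content was 67.6% (median of all windows 51.2%). The Vegfd window, at 40.8% GC, held a TATA match at -106 to -101. The downstream Gdf15 start had a TATA match at -28 to -23, an EGR1 match on the minus strand at -129 to -121 that overlaps 2 SP1 matches, and 5 SP1 matches in all, while the upstream start had only a CCAAT box on the minus strand at -42 to -38. AP-1 and full CRE letters were in 0 of the 15 windows of the 8 genes, beside 4.63% and 1.83% of all 33469 windows. EGR1 letters were in 1 of the 15 (2.73% of all), SP1 in 5 (33.1%), the short CRE, which every full CRE also contains, in 3 (21.2%), TATA in 3 (14.2%) and CCAAT in 3 (37.5%). A match is a description of letters and not a binding site, and windows of 1 gene can overlap.

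**Figure D1:**
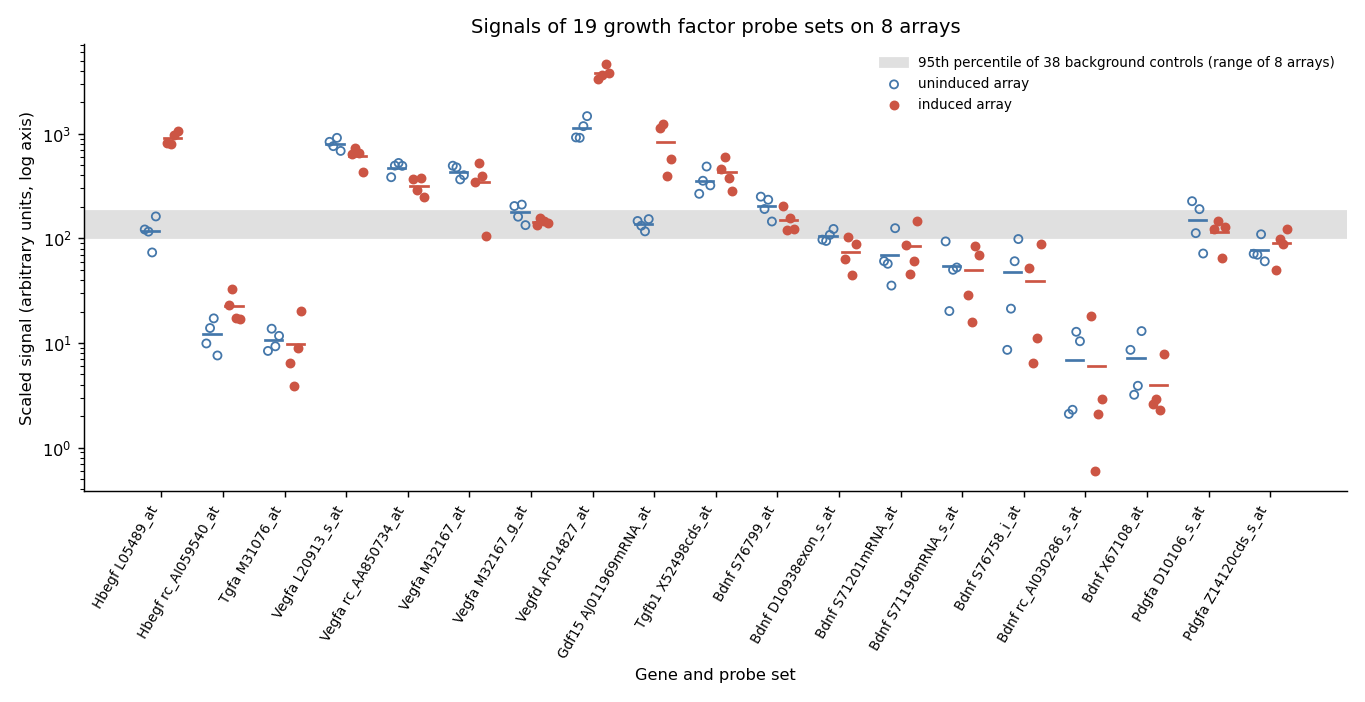
Scaled signal (log axis) of all 19 growth factor probe sets on the 4 uninduced arrays (open circles) and the 4 induced arrays (filled circles), with horizontal bars at the group means and a grey band for the 95th percentile of the background controls (102 to 183 over the arrays). The induced arrays sit above the uninduced ones for Hbegf L05489_at, Vegfd and Gdf15, and most Bdnf, Tgfa and Pdgfa points lie in or under the band.

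Among the EGF receptor ligands, Hbegf was higher and Tgfa lay within background. Hbegf (probe set L05489_at) had signals of 122, 116, 73.4 and 162 on uninduced arrays 1 to 4, and of 825, 804.5, 972 and 1057 on induced arrays 1 to 4. Every induced array lay far above every uninduced array, and of the uninduced arrays only replicate 4 exceeded its own background reference. The means were 118 ± 36.3 and 915 ± 121 (SD, n = 4 each), a log2 difference of 2.92 ± 0.21 (standard error of the fit) or 7.56-fold as measured. With the signals of the 3 uninduced arrays under the background reference raised to it, the fold of Hbegf was 5.83. The 95% interval of the fit, not adjusted for the choice of these genes, ran from 5.48-fold to 10.4-fold. Log2 differences here are of the signal plus 7, so folds understate the change of dim probe sets. Leaving out each array in turn gave 2.72 to 3.08. The second Hbegf probe set (rc_AI059540_at) had uninduced signals of 9.9, 13.9, 17.2 and 7.6 and induced signals of 23.2, 32.7, 17.2 and 17.1. All 8 lay under the background reference and the groups met at 17.1 to 17.2. It was under the filter on low signal, with a difference of 0.62 that has no error from the fit. Tgfa (M31076_at), the other ligand of this receptor, had signals of 8.4 to 13.7 uninduced and 3.9 to 20.3 induced, also under the filter and the background reference on all 8 arrays, so these arrays give no measured change of it.

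Of the VEGF family, Vegfd was higher and Vegfa was lower on average without passing. Vegfd (AF014827_at), a factor known for growth of lymphatic vessels, had uninduced signals of 923, 915, 1184 and 1475 and induced signals of 3342, 3677, 4616 and 3771. The lowest induced array was above the highest uninduced array by more than the spread of either group, and all 8 arrays were above background. The means were 1124 ± 265 and 3852 ± 542 (SD, n = 4 each), with a log2 difference of 1.79 ± 0.16 or 3.45-fold. The 95% interval of the fit ran from 2.73-fold to 4.37-fold. The log2 difference ranged from 1.70 to 1.93 without 1 array. Because its uninduced signal is well above background, this fold depends less on the constant added than that of Hbegf: adding 1 or 32 in place of 7 gave 1.79 and 1.77 for Vegfd and 2.98 and 2.68 for Hbegf.

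All 4 probe sets of Vegfa, the factor known for blood vessel growth, had lower means in induced cells, and none was called. The probe set rc_AA850734_at had uninduced signals of 385, 497, 526 and 494 and induced signals of 366, 293, 375 and 247.5. It was the only one whose groups did not overlap, by a narrow margin between uninduced replicate 1 and induced replicate 3. Its means were 475 ± 62.2 and 320.3 ± 60.8 (SD, n = 4 each) and its log2 difference -0.57 ± 0.17. It was called in 3 of 19 alternatives: without uninduced replicate 1 (-0.67), with only probe sets at or above the median signal (-0.57) and with array weights (-0.56). The probe set L20913_s_at had signals of 838, 762, 915 and 686 uninduced and 643, 739, 660.5 and 434 induced, which overlap, with a log2 difference of -0.39 ± 0.16. M32167_at had 495, 478, 366 and 402 uninduced and 347, 528, 392 and 105 induced. Its difference of -0.53 ± 0.38 rested on induced replicate 4, the only induced array under its background reference, and was -0.05 without it. M32167_g_at, named from the same source sequence, had 134 to 210 uninduced and 133 to 155 induced (log2 difference -0.27 ± 0.20). The 95% intervals of the fit, not adjusted for the number of probe sets, ran from -0.94 to -0.20 for rc_AA850734_at, -0.74 to -0.03 for L20913_s_at, -1.37 to 0.30 for M32167_at and -0.71 to 0.17 for M32167_g_at. The probe sets of 1 gene share the same RNA on each array and are not replicates of each other.

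Pdgfa, a ligand of PDGF receptors, gave differences of opposite sign on its 2 probe sets. D10106_s_at had signals of 227, 112, 190.5 and 71.7 uninduced and 122, 147.5, 64.6 and 129 induced, a log2 difference of -0.29 ± 0.36. Z14120cds_s_at had 71.3, 69.8, 109.5 and 60.4 uninduced and 49.6, 99.5, 87.8 and 124 induced, a difference of 0.17 ± 0.33. Both overlapped between the groups, D10106_s_at exceeded the background reference on 3 of 8 arrays and Z14120cds_s_at on 0. The 95% intervals ran from -1.09 to 0.51 and from -0.54 to 0.88.

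In the TGF-beta superfamily, Gdf15 was higher and Tgfb1 was not called. Gdf15 (AJ011969mRNA_at), a cytokine known to be released by stressed cells, had uninduced signals of 147, 132, 117 and 153 and induced signals of 1134, 1246, 396 and 580.5. Every induced array was above every uninduced array, but induced replicates 1 and 2 lay well above induced replicates 3 and 4. Of the uninduced arrays 2 of 4 exceeded their background reference. The means were 137 ± 16.1 and 839 ± 415 (SD, n = 4 each), a log2 difference of 2.41 ± 0.31 or 5.32-fold as measured. The 95% interval of the fit ran from 3.32-fold to 8.52-fold. With uninduced signals under the background reference raised to it, the fold was 4.88. The log2 difference was lowest, at 2.16, without replicate 2 of both groups and highest, at 2.72, without induced replicate 3. The spread of Gdf15 within the induced group may have entered the choice of genes, since the p from limma depends on it. Its SD on the log2 scale was 0.78, beside 0.20 for Vegfd and 0.19 for Hbegf, and 10.4% of all tested probe sets, dim ones included, had a wider one (median 0.27). Among the 1075 tested probe sets with an induced mean between those of Gdf15 and Vegfd (839 to 3852), a range chosen after the values were seen, it ranked 8 from the widest (median 0.16). Gdf15 has the lowest induced mean of that range, so this rank is only among probe sets at least as bright. In the uninduced group the Gdf15 SD was 0.16 (median of all tested 0.24). The induced arrays with high Gdf15 had lower median signals over all probe sets (97.5 and 104) than those with low Gdf15 (119 and 135), whereas among uninduced arrays Gdf15 was lowest in replicate 3, which had the lowest median signal of that group (106), and highest in replicate 4, which had the highest (127). The part of array-wide signal in this spread was not tested.

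Tgfb1 (X52498cds_at), a regulator of growth and matrix production, was measured above background on all 8 arrays. Its signals were 267, 356, 487 and 321 uninduced and 459, 599, 377 and 281.5 induced. The groups overlapped over most of their range, with means of 358 ± 93.5 and 429 ± 135 (SD, n = 4 each) and a log2 difference of 0.24 ± 0.24. The 95% interval from -0.28 to 0.76 includes a fall of 1.21-fold and a rise of 1.69-fold.

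The 7 probe sets of Bdnf, a neurotrophin that supports neuronal survival, were dim and none was called. S76799_at, the brightest, had signals of 251, 191, 234 and 145 uninduced and 202.5, 121.5, 156 and 122 induced. It exceeded the background reference on 7 of 8 arrays, the groups overlapped, and its log2 difference was -0.43 ± 0.24 (95% interval -0.95 to 0.09). D10938exon_s_at had 94.6 to 123 uninduced and 44.7 to 103 induced, a difference of -0.52 ± 0.29, and exceeded the reference on 1 array. S71201mRNA_at, S71196mRNA_s_at and S76758_i_at had log2 differences of 0.28 ± 0.43, -0.17 ± 0.54 and -0.30 ± 0.76, exceeded the reference on 1, 0 and 0 arrays, and each changed sign when single arrays were left out. The other 2, rc_AI030286_s_at and X67108_at, had signals of 0.6 to 18.3 and fell under the filter. Bdnf is transcribed from several starts, 6 of which are in the promoter table, and the files do not say which transcript each probe set reads. No change of Bdnf was called in either direction; S76799_at gives the narrowest interval, and the dimmer probe sets bound the change only loosely.

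**Figure D2:**
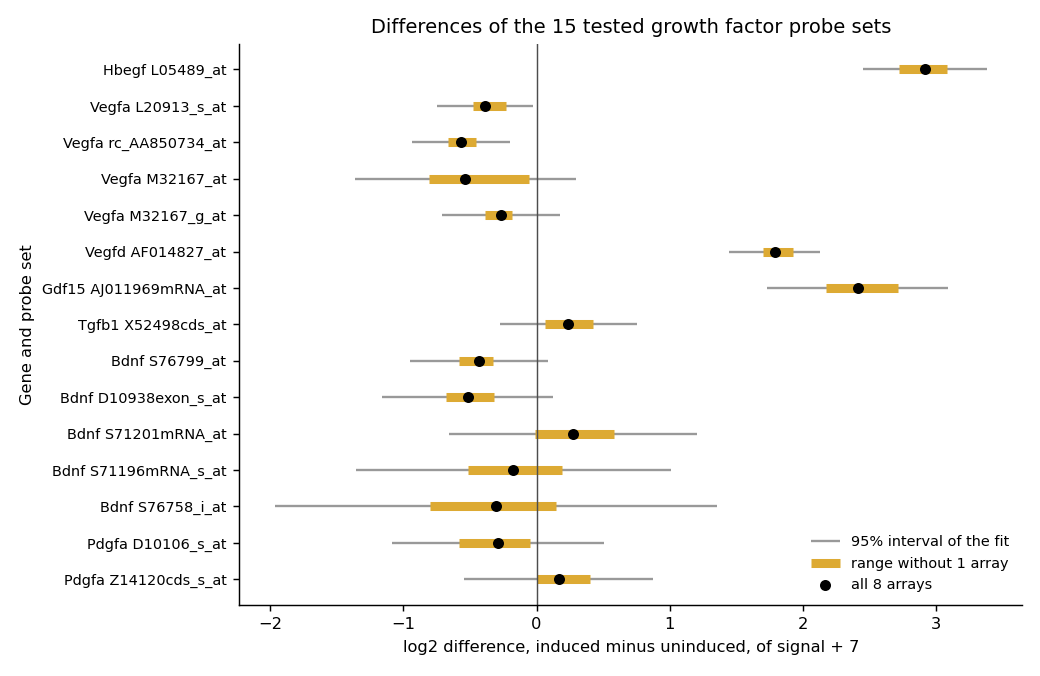
Log2 difference (induced minus uninduced, of signal plus 7) of the 15 tested growth factor probe sets, with points for all 8 arrays, grey lines for the 95% interval of the fit and thick bars for the range when each array is left out in turn. Hbegf (2.92), Gdf15 (2.41) and Vegfd (1.79) stand clear of 0 under every omission. In the omission ranges the 4 Vegfa probe sets stay under 0 and 3 of 5 Bdnf probe sets cross 0. The 95% intervals of Vegfa M32167_at and M32167_g_at and of all 5 Bdnf probe sets include 0.

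The genes whose pattern over the 8 arrays was most like that of each raised growth factor were found by the root mean square (RMS) difference between log2 values, each taken relative to its own uninduced mean. For Hbegf these were Vgf, a secreted neuropeptide precursor (RMS difference 0.32), Flnc, an actin crosslinker (0.41), and the early response factor Egr1 (0.49). For Vegfd they were Plat, the tissue plasminogen activator (0.21), the stress-induced transcription factor Atf3 (0.22) and the stathmin Stmn4 (0.24). For Gdf15 they were Jun, a subunit of AP-1 (0.38), the zinc finger factor Klf6 (0.46) and the MAP kinase phosphatase Dusp1 (0.50). Relative to their uninduced means, Jun stood at 2.51, 2.37, 2.01 and 2.00 on induced arrays 1 to 4 where Gdf15 stood at 2.99, 3.13, 1.49 and 2.03. Jun was thus also higher on induced arrays 1 and 2 than on 3 and 4, by less than Gdf15, whereas Klf6 was at its highest on induced array 4 (2.87). The measure favours genes with a change of the same size and says nothing of shared control. Because Jun was picked for closeness to Gdf15 on these same arrays, a like order of the arrays was favoured in advance.

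**Figure D3:**
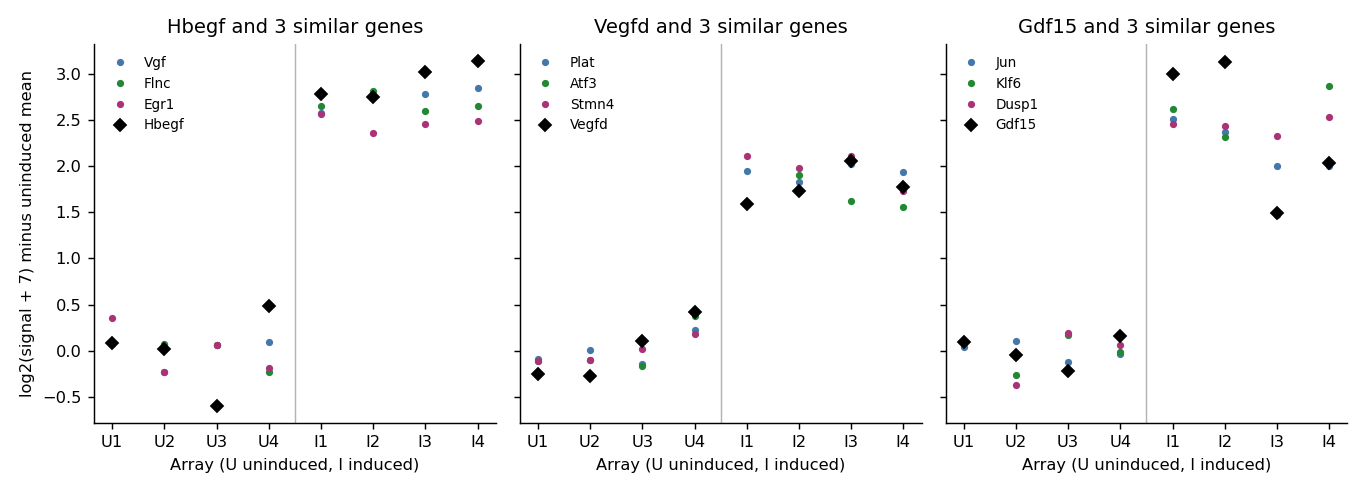
Log2(signal + 7) minus the uninduced mean on each of the 8 arrays (U1 to U4 uninduced, I1 to I4 induced) for Hbegf, Vegfd and Gdf15 (black diamonds) and the 3 genes with the smallest RMS difference from each (coloured circles). Gdf15 lies at 2.99 and 3.13 on induced arrays 1 and 2 and at 1.49 and 2.03 on arrays 3 and 4, while Hbegf stays between 2.74 and 3.13.

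Genes that work with these factors were taken from 4 lists, each gene represented by its brightest probe set. The lists were chosen with earlier results of these data known, so their counts and adjusted p are a description and no independent test. Over the 3620 genes represented in this way, 4.31% were called higher and 2.90% lower, and the median log2 difference was -0.05. Of 28 measured other secreted growth factors limma called 0 in either direction, at a median of -0.14. At an unadjusted p under 0.05 limma gave 0 higher and 3 lower, beside 536 and 568 of all 6118 probe sets tested. The brightest of them, the inhibin subunit Inha and the anti-Mullerian hormone Amh, differed by -0.09 ± 0.16 and -0.03 ± 0.17. The widest difference, named after its value was seen, was that of the neurotrophic factor Cntf at -1.51 ± 0.43 (limma adjusted p = 0.0607; 0.0204 to 0.0482 where it was called, with no filter, no intensity trend or array weights). Its means of 62.8 and 18.1 both lay under the background reference on all 8 arrays, so it has no fold. Vegfb and Pgf, of the VEGF family, and Tgfb2 and Tgfb3, relatives of Tgfb1, were looked up after their values were seen. They differed by -0.68 ± 0.36, -0.37 ± 0.28, -0.80 ± 0.51 and -0.29 ± 0.20. The other Tgfb3 probe set differed by 0.04 ± 0.47 without a call. Vegfb (means 157 uninduced and 102 induced) and Tgfb2 (181 and 125) lay close to the background reference. Vegfc, also of the VEGF family, was not among the 28 genes measured.

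Of 20 measured receptors and co-receptors 2 were called higher, 0 lower (3 and 1 at an unadjusted p under 0.05 in limma) and 18 were not called, at a median of 0.02. Ret, the receptor tyrosine kinase through which Gdf15 signals with Gfral, rose from signals of 350.4, 298.5, 308 and 341 to 558, 706, 492 and 847. Its log2 difference was 0.96 ± 0.17 (limma adjusted p = 0.0041), and its other probe sets rose by 1.09 ± 0.28 and 2.05 ± 0.22. The call of the brightest one was lost without replicate 2 of both groups (limma adjusted p = 0.0567). On these arrays 0 probe sets carried the single symbol Gfral or Flt4, a VEGF receptor also in this list. Ngfr, the low-affinity neurotrophin receptor, rose by 0.45 ± 0.11 (limma adjusted p = 0.0266), from 2802 ± 301 to 3824 ± 432 (SD, n = 4 each). Its other probe set differed by -0.33 ± 0.16 and was not called, and the call was lost in 4 of the 8 fits without 1 array (adjusted p = 0.0887 without uninduced replicate 2, 0.0837 without induced replicate 2, 0.0661 without induced replicate 4 and 0.0602 without uninduced replicate 4). It was also lost with median centring (0.0620), without the intensity trend (0.117), without replicate 2 of both groups (0.215) and in the average of its probe sets (0.867). Of the uncalled receptors the brightest were Cd9, which associates with the Hbegf precursor, at 0.36 ± 0.13, and the VEGF co-receptor Nrp1 at 0.07 ± 0.14. Receptors of Hbegf and Bdnf were looked up after their values were seen. Egfr differed by -0.84 ± 0.36 (limma adjusted p = 0.244), from 179.6 ± 46.1 to 105 ± 51.6, means close to the background reference. Ntrk2 differed by 0.85 ± 0.45 (limma adjusted p = 0.367), at means of 42.1 and 71.7 under the background reference of every array. Erbb4, also in this list, was not among the 20 measured.

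Of 27 measured processing enzymes and binding proteins 2 were called higher, 1 lower and 24 were not called, at a median of -0.04. Limma gave 3 higher and 2 lower at an unadjusted p under 0.05. Plat, a protease of the plasminogen system, which acts on growth factor precursors, rose from 430.1 ± 50.3 to 1657 ± 90.4 (SD, n = 4 each); on the log2 scale it rose by 1.93 ± 0.11 (limma adjusted p = 1.1e-06). Sdc1, a heparan sulfate proteoglycan that can bind heparin-binding ligands, rose by 0.63 ± 0.10 (adjusted p = 0.0017), and its other probe set by 0.74 ± 0.16. A2m, a protease inhibitor of plasma that also binds growth factors, fell by 0.67 ± 0.10 on its brightest probe set (adjusted p = 0.0015), while its others differed by -0.18, 0.12 and 0.88 without a call and the average of its probe sets gave 0.034. The brightest uncalled genes, the matrix protein Sparc and the glypican Gpc1, differed by -0.23 ± 0.13 and -0.15 ± 0.11. Other Sparc probe sets differed by 0.11 ± 0.08, 0.03 ± 0.12 and 0.17 ± 0.10 without a call. Some enzymes that release or mature these factors were looked up after their values were seen. The sheddase Adam17 differed by 0.02 ± 0.13, Adam10 by -0.44 ± 0.24 and the convertase Furin by 0.29 ± 0.19. The other Furin probe set differed by -0.16 ± 0.23 and was not called.

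Of 16 measured genes listed as commonly induced by EGF or TGF-beta receptor signalling 3 were called higher, 2 lower and 11 were not called. Whether these receptors raise each of them in PC12 cells was not tested. The median was 0.24, and limma gave 6 higher and 2 lower at an unadjusted p under 0.05. Errfi1, a feedback inhibitor of the EGF receptor, rose by 0.94 ± 0.22 (limma adjusted p = 0.0242), from signals of 94.0, 131, 93.1 and 129, above the background reference on 1 of 4 arrays, to 250.4, 197, 267 and 169. Its other probe set differed by 1.39 ± 0.44 and was not called. Dusp6, a phosphatase of ERK kinases, was called higher (adjusted p = 0.0202), with signals of 11.1 to 53.7 uninduced and 65.2 to 136 induced, but exceeded the background reference only on induced replicates 2 and 3. The size of its change is therefore not settled: the log2 difference was 1.97 ± 0.45 with 7 added, 2.31 with 1 and 1.29 with 32, and its other probe set differed by 1.28 ± 0.41 without a call. Ier3, an early response gene, rose by 0.64 ± 0.13 (adjusted p = 0.0085), and its other probe set by 1.14 ± 0.16. The transcriptional regulators Id1 and Id3 fell by 0.60 ± 0.10 (limma adjusted p = 0.0023) and 0.42 ± 0.11 (adjusted p = 0.0418). Their other probe sets differed by -0.34 ± 0.17 and -0.42 ± 0.14 without a call. Id2 differed by 0.42 ± 0.13 (limma adjusted p = 0.0886) and the cyclin Ccnd1 by 0.35 ± 0.13. Other Ccnd1 probe sets differed by 0.46 ± 0.15, 0.24 ± 0.14 and -0.20 ± 0.24 without a call. Over the 8 fits without 1 array, Id1 and Ier3 passed in 8. The Errfi1 call was lost without replicate 1 or 3 of either group (adjusted p up to 0.0773, without induced replicate 3) and without replicate 2 of both groups (0.0864). The Dusp6 call was lost without uninduced replicate 1, 2 or 3 or induced replicate 2 or 3 (up to 0.0733, without induced replicate 3) and without replicate 2 of both groups (0.143), and the Id3 call in every fit except that without induced replicate 2 (up to 0.108 without induced replicate 3). The Id3 call was also lost in 7 other alternatives, with adjusted p between 0.0525 and 0.155. Col1a1, a collagen gene that is also 1 of the fibroblast markers above, counts as uncalled on its brightest probe set (0.13 ± 0.21), but 2 of its other probe sets rose, by 1.05 ± 0.26 (adjusted p = 0.0299) and 0.71 ± 0.17 (adjusted p = 0.0244), and another differed by 0.70 ± 0.21 without a call; the part of other cell types in this was not tested.

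**Figure D4:**
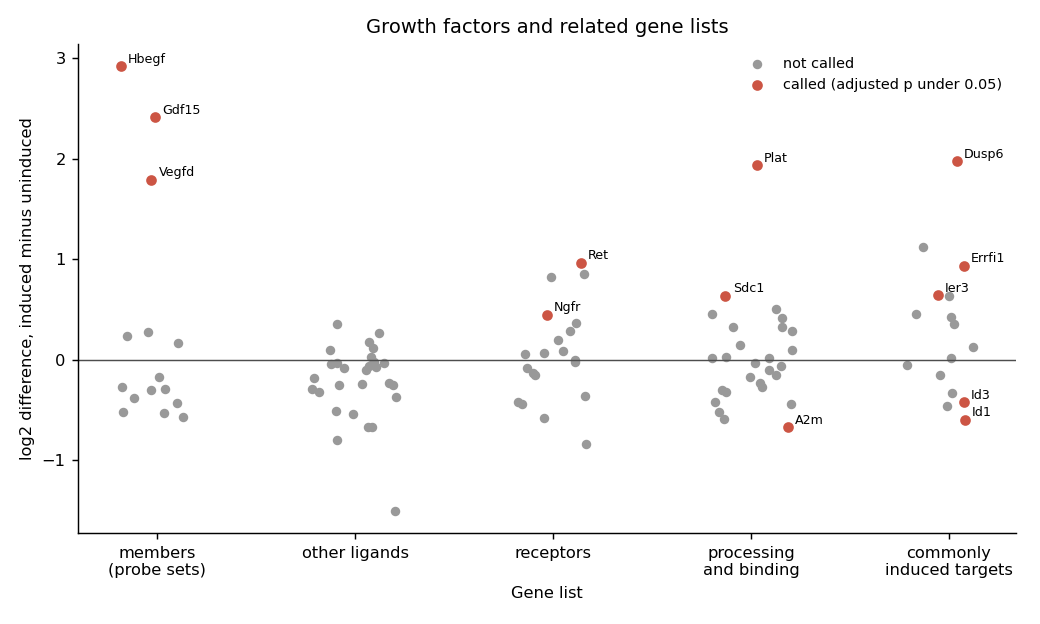
Log2 difference (induced minus uninduced) of the 15 tested growth factor probe sets and of the genes of 4 related lists, 1 point per probe set or gene, with called ones in red and named; horizontal positions within a list are arbitrary. Of the 15 growth factor probe sets, whose genes were picked on this contrast, 3 were called (Hbegf, Gdf15 and Vegfd, 1.79 to 2.92) and 12 were not. Of 28 other ligands 0 were called, beside 4.31% higher and 2.90% lower of all 3620 genes.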

How the data were processed

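RNA of 8 samples was measured on 8 arrays of 8799 probe sets. The deposited values are intensities, 1 linear scaled signal per probe set; no source used here names the program or the earlier steps. The trimmed means of the deposited signals are nearly equal across arrays, as after scaling, a step that no source states. By the array's annotation table, 7018 probe sets name 1 gene symbol, 308 more than 1 and 1473 no symbol; 6994 of the 7018 matched the RefSeq gene list (GRCr8).

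The log2 of each signal plus 7 was taken. The 59 control probe sets and 2622 others with a mean under the 30th percentile (36.3) were left out, and limma 3.58.1 (R 4.3.3) was run on the other 6118 (eBayes with an intensity trend; 6 residual and 5.78 prior degrees of freedom), which was tested on simulated data. Alternatives were the constant added, the filter, centring, quantile normalization, no trend, array weights, blocks for replicate number and source label, and omitted arrays.

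The growth factors and gene lists were chosen with earlier results of these data known. Named were all probe sets of the 8 genes, the called genes of each list (at most 6) and its 2 brightest uncalled ones, and 3 genes of similar pattern per called growth factor; others were chosen after their values were seen.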

Additional observations from a re-analysis of the deposited data

Results flagged for a closer look

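In each growth factor probe set, the highest and the lowest of the 4 arrays of a group were compared with the rest, and 2 of 38 groups had 1 array far from the other 3; chance alone gives about 1 in 20. Both are dim Bdnf probe sets under the filter: rc_AI030286_s_at had a signal of 18.3 on induced replicate 1 against 0.6 to 2.9 on the other induced arrays, and X67108_at had 7.9 on induced replicate 4 against 2.3 to 2.9. All of these signals lie under the background reference.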

How the results depend on the processing

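Hbegf, Vegfd and Gdf15 were called higher in all 19 alternatives. These genes were picked on this same contrast, so this describes the effect of processing and carries no test of them. Of 280 alternative values of the 15 growth factor probe sets, 271 kept direction and side of the threshold, 3 (1 Vegfa probe set) passed it and 6 changed sign; without 1 array S71196mRNA_s_at of Bdnf ran from -0.51 to 0.19, S71201mRNA_at from -0.014 to 0.58 and S76758_i_at from -0.80 to 0.14. Averaging the probe sets of a gene gave 0.034 for A2m, 0 lower processing and binding genes and 1 higher receptor. Growth factor probe sets called lower were 1 with the median filter and with array weights, and other ligands called lower were 1 with no filter, no intensity trend or array weights. Listed EGF and TGF-beta target genes called lower were 1 with no filter, median centring, no trend or array weights. The same count came with either block or with replicate 2 left out of both groups. Receptors called higher were 1 with median centring, no trend or the replicate block. Over all probe sets, 433 were called, 279 (101 lower) without the trend, 369 (219 higher, 150 lower) with the replicate block, which lost the calls of Errfi1 (limma adjusted p = 0.0706), Id3 (adjusted p = 0.0706) and Ngfr (adjusted p = 0.0759), and 221 (141 higher, 80 lower) without replicate 2 of both groups, where 0 receptors and 1 target gene were called higher. Same-numbered samples deviated from their group means with correlations of -0.14, 0.06, -0.09 and 0.19, and 1 of 4 induced arrays matched its own number best, so the numbers were not taken as pairs. Without 1 array the counts ran from 313 to 411 (191 to 247 higher, 112 to 164 lower, 112 and 120 without uninduced replicates 3 and 2), 3 growth factor probe sets higher in each and 0 to 1 lower (1 without uninduced replicate 1), receptors higher 1 to 3, processing genes higher 2 to 3, and target genes 1 to 4 higher and 1 to 2 lower. The causes were not tested. The 4 arrays a group limit the precision, and signals near background limit Bdnf, Tgfa and Pdgfa.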
